A study of Mus musculus with 6 samples.

Results

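Potassium channel genes were followed in cultured primary mouse muscle stem cells with and without an intact Med23 gene. The set was chosen by name: it held each row of the deposited table whose symbol is the stem Kcn, further letters and a final number, which leaves out antisense and overlapping transcripts. It had 92 genes among 32973 rows, and 0 of them had to be found through an Ensembl identifier. The genes to be compared between groups were then selected on their level, a 6-library mean of 1 FPKM or more, which 12 of the 92 reached. FPKM are fragments scaled to transcript length and library size, so levels can be compared between genes. The set was put together with the fall of Kcnn4 already known, so that the fall of Kcnn4 is given as a description and supports nothing further.

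Control cells (Ctrl, 3 libraries) had the genotype Med23flox/flox, and knockout cells (Med23KO, 3 libraries) had the genotype Med23flox/flox::Pax7CreERT2, so both groups carried the floxed alleles. Cre, in the inducible form CreERT2, is expressed from Pax7, the gene that marks muscle stem cells, and was present in 1 group only. Effects of Cre and of the floxed gene's loss therefore cannot be told apart. How Cre was induced, and whether both groups received the inducer, was not established here. All cells were isolated by flow sorting from skeletal muscle, received no treatment per the labels, and grew for 3 days on collagen with 20% serum and 5 ng/ml basic fibroblast growth factor. The labels do not give age, sex or strain, or whether libraries stem from separate animals, so the p-values refer to library-to-library spread alone, part of which may be technical.

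Potassium channels let potassium leave the cell along its gradient and so set the resting membrane potential. Pore-forming subunits fall into voltage-gated channels, inward rectifiers, tandem-pore-domain background channels, and channels opened by internal calcium or sodium; auxiliary subunits change their gating or transport. In cultured myoblasts, potassium currents hyperpolarize the membrane before fusion, and Kcnn4 and its relatives couple a rise of internal calcium to potassium efflux.

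Few of these genes were expressed at an appreciable level. Of the 92, 27 were listed at 0 in every library, 31 had a mean above 0 but under 0.1 FPKM, and 22 a mean from 0.1 to 1 FPKM. The 12 above the limit were 6 of 40 voltage-gated alpha subunits, 3 of 14 tandem-pore-domain channels, 1 of 15 inward rectifiers, 1 of 8 calcium- or sodium-activated channels and 1 of 15 auxiliary subunits. Classes were assigned by the stem of the symbol, so a class name need not describe the gating of every member, such as Kcnu1 among the calcium- or sodium-activated channels. The tested genes with the lowest means were Kcnab2 (1.20 FPKM), Kcnh2 (1.24 FPKM) and Kcnq5 (1.52 FPKM). The highest means under the limit were those of Kcnmb4 (0.889 FPKM), Kcnc1 (0.804 FPKM) and Kcne4 (0.583 FPKM). Kcnh2 passed through its knockout values alone, since its control mean was 0.816 FPKM.

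Summed FPKM is given here for 3 of the classes. The sum of calcium- or sodium-activated channels was 9.74, 13.8 and 12.9 FPKM in Ctrl replicates 1, 2 and 3 and 2.59, 3.03 and 3.88 FPKM in Med23KO replicates 1, 2 and 3, and most of it in controls was Kcnn4. Without Kcnn4 the 7 other genes of the class summed to 1.65, 0.955 and 1.07 FPKM in Ctrl replicates 1, 2 and 3 and 1.85, 2.20 and 1.76 FPKM in Med23KO replicates 1, 2 and 3, higher in each knockout library. That of the inward rectifiers was 6.26, 6.45 and 5.83 FPKM against 3.14, 2.82 and 2.51 FPKM, without overlap, and Kcnj12 was the main part of it. Auxiliary subunits summed to 4.66, 3.82 and 3.17 FPKM against 4.09, 4.48 and 3.97 FPKM, and here the groups overlapped.

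**Figure D1:**
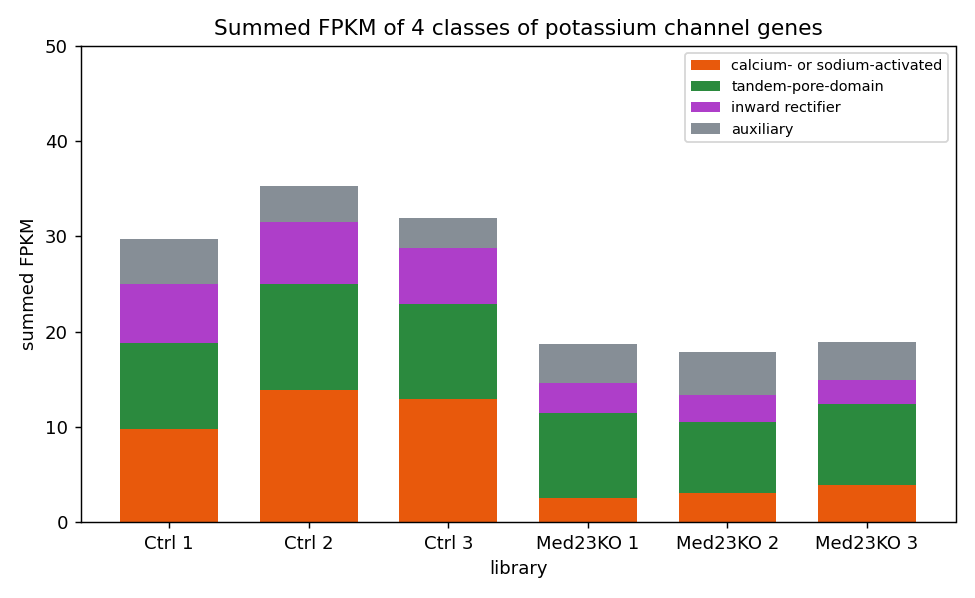
Summed FPKM of 4 classes of potassium channel genes in each of the 6 libraries, stacked by class (voltage-gated alpha subunits are not plotted). The calcium- or sodium-activated segment spans 9.74 to 13.8 FPKM in controls and 2.59 to 3.88 FPKM in knockouts; this gap is that of Kcnn4, without which the class sums to at most 1.65 FPKM in controls and at least 1.76 FPKM in knockouts.

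The targeted gene Med23 had 10.4, 11.7 and 10.2 FPKM in Ctrl replicates 1, 2 and 3 and 5.10, 5.86 and 4.23 FPKM in Med23KO replicates 1, 2 and 3. Its knockout mean was 47.1% of the control mean (log2 difference -0.96, limma adjusted p = 0.0197), so transcript remained, and why was not tested. Med23 was called in 1 of the 6 fits that left out 1 library. All 9 markers of muscle stem cells and myoblasts were at a mean of 1 FPKM or more, with summed levels from 1531 to 2234 FPKM in controls and from 1382 to 2193 FPKM in knockouts. These sums were lowest in replicate 3 of each group. Of 9 myocyte markers, 8 were at 1 FPKM or more, and their sum ran from 98.2 to 147 FPKM in controls and from 239.8 to 266 FPKM in knockouts. Of 7 fibroblast markers, 5 were, with sums from 149.7 to 197 FPKM and from 207 to 316 FPKM. Col3a1 made up most of the fibroblast sum (182, 164 and 138 FPKM in controls, 286, 256 and 183 FPKM in knockouts). Dcn and Lum were also higher in each knockout library, while Pdgfra, Ly6a, Dpt and Pi16 overlapped between groups. The myocyte and fibroblast sums were both higher in each knockout library, and their part in the results below was not tested. Endothelial markers summed to 3.54 to 7.71 FPKM and 3.74 to 5.89 FPKM (3 of 5 at 1 FPKM or more), and pericyte and smooth muscle markers to 21.6 to 33.1 FPKM and 15.7 to 25.8 FPKM (3 of 6, with Higd1b at 0). Immune markers (1 of 5) stayed at or under 3.16 FPKM and glial markers (1 of 4) at or under 1.84 FPKM in sum, and all 4 red cell markers were listed at 0. Summed FPKM did not overlap, at 697886 to 746973 in controls and 599738 to 675095 in knockouts, and the very abundant Rmrp had its 3 lowest values in the knockouts. With Rmrp taken out, library sums did overlap, at 468565 to 507383 in controls and 426697 to 476046 in knockouts, and the number of reads behind the libraries is unknown.

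Of the 12 genes compared, 3 fell in the knockout and 0 rose (limma on log2(FPKM + 1), Benjamini-Hochberg adjusted p under 0.05 over all 12336 tested genes). Across all tested genes 1.42% were called lower and 1.49% higher. That is 175 lower and 184 higher, a split that became 205 and 363 after median scaling and 157 and 489 with equal sums without Rmrp. Leaving out Kcnn4, 2 of 11 were called lower. The 12 genes had 6 differences above and 6 below 0, with a median of -0.09, against -0.03 over all tested genes. The median of the 11 genes other than Kcnn4 was 0.12, on the other side of 0. The 3 knockout values lay below the 3 control values in 4 of the 12 genes, where 14.7% of all tested genes did so, and above them in 2, where 10.0% did so. All 3 calls were lost without Ctrl replicate 2 or without Med23KO replicate 2, fits in which 23 and 13 genes in all were called, and 4 genes were called lower without Med23KO replicate 3. In such bulk libraries, a smaller number of expressing cells and less RNA per cell cannot be told apart.

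**Figure D2:**
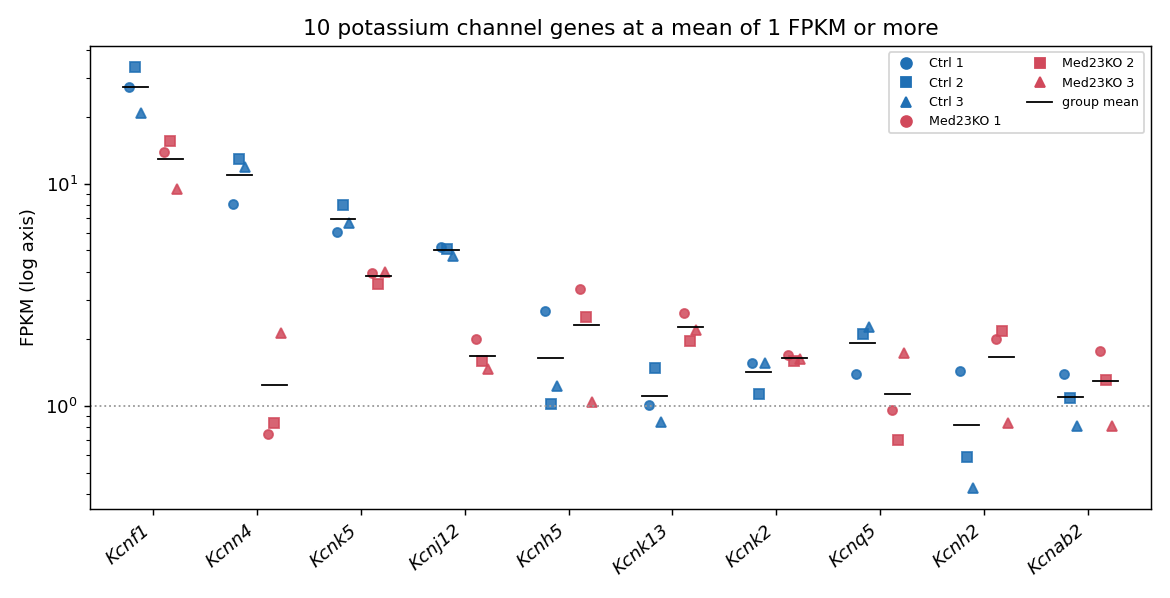
FPKM (log axis) of 10 potassium channel genes at a mean of 1 FPKM or more, with 1 point per library, the shape giving the replicate number and the bar the group mean. Values of Kcnf1, Kcnn4, Kcnk5 and Kcnj12 do not overlap between groups and are lower in the knockout; the dotted line marks 1 FPKM.

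**Figure D3:**
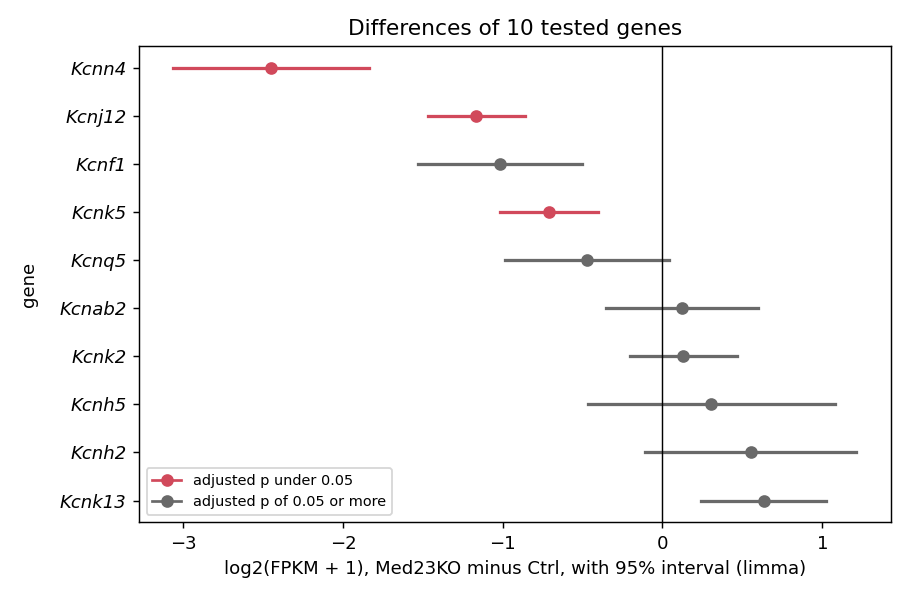
Difference in log2(FPKM + 1) between knockout and control for the same 10 genes, with the 95% limma interval. Intervals of Kcnn4, Kcnj12, Kcnf1, Kcnk5 and Kcnk13 do not reach 0, and the adjusted p was under 0.05 for Kcnn4, Kcnj12 and Kcnk5.

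Kcnn4 encodes the intermediate-conductance calcium-activated potassium channel, which senses calcium through bound calmodulin and is best known from red cells, T cells and proliferating mesenchymal cells. It had 8.09, 12.9 and 11.9 FPKM in Ctrl replicates 1, 2 and 3 and 0.743, 0.835 and 2.12 FPKM in Med23KO replicates 1, 2 and 3. Each knockout library was far below each control library, and Med23KO replicate 3 kept the most transcript. The mean went from 10.9 ± 2.53 to 1.23 ± 0.773 FPKM (SD, n = 3), 11.3% of the control level. On the log2(FPKM + 1) scale, which understates the change of low genes, the difference was -2.45 (SE 0.263, limma adjusted p = 0.0105). Among the 10 genes described, Kcnn4 ranked 2 by mean level in controls and 9 in knockouts. Red cell markers were at 0, and the T cell marker Cd3e was at most 0.236 FPKM. Fibroblast markers were present, with sums higher in each knockout library as given above. Which cells held the Kcnn4 transcript was not tested.

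The other calcium-activated channels were much lower and none was lower in all knockout libraries. Kcnn3, a small-conductance channel, had 0.654, 0.330 and 0.278 FPKM in the Ctrl libraries and 0.703, 0.933 and 0.569 FPKM in the Med23KO libraries, with the groups overlapping. Its relative Kcnn1 had 0.635, 0.435 and 0.549 FPKM in the Ctrl libraries and 0.516, 0.449 and 0.307 FPKM in the Med23KO libraries, also overlapping, and Kcnn2 was listed at 0 throughout. Kcnma1, the pore of the large-conductance channel opened jointly by calcium and voltage, had 0.0604, 0.108 and 0.160 FPKM in the Ctrl libraries and 0.268, 0.450 and 0.582 FPKM in the Med23KO libraries. It was higher in each knockout library at these low levels, but not past the threshold in a fit without a filter on low values (limma adjusted p = 0.13). The 4 Kcnn genes together had 11.9 ± 2.24 FPKM in Ctrl and 2.39 ± 0.541 FPKM in Med23KO cells (SD, n = 3), a difference made by Kcnn4. The 3 others summed to 1.29, 0.765 and 0.827 FPKM in the Ctrl libraries and 1.22, 1.38 and 0.876 FPKM in the Med23KO libraries, overlapping. In the authors' deposited table Kcnn3 was called higher (q = 0.0151). That table calls far more genes than limma did here: 1029 higher and 897 lower among the 12336 tested genes, against 184 and 175.

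**Figure D4:**
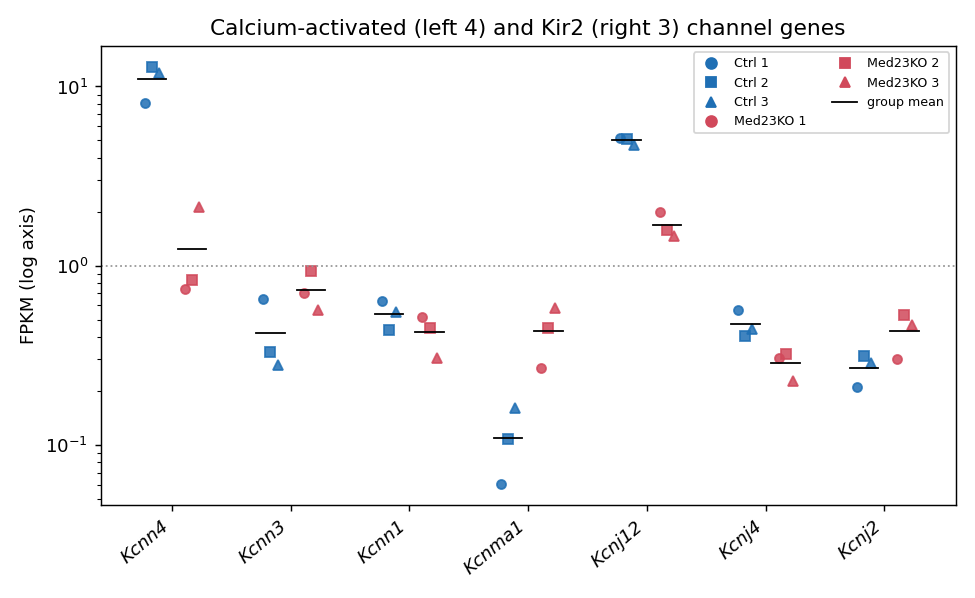
FPKM (log axis) of the calcium-activated channel genes Kcnn4, Kcnn3, Kcnn1 and Kcnma1 and of the Kir2 genes Kcnj12, Kcnj4 and Kcnj2, by library, with bars at the group means. Kcnn4 and Kcnj12 are the genes at several FPKM in controls and lie lower in the knockout; Kcnma1 lies higher there, at under 1 FPKM.

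Inward rectifiers of the Kir2 group hold muscle cells at a negative resting potential. Kcnj12, one of their pore subunits, had 5.17, 5.10 and 4.73 FPKM in Ctrl replicates 1, 2 and 3 and 1.99, 1.59 and 1.46 FPKM in Med23KO replicates 1, 2 and 3. It varied little within either group, and the groups lay well apart. The mean fell from 5.00 ± 0.232 to 1.68 ± 0.277 FPKM (SD, n = 3), 33.6% of the control level, a difference of -1.17 on the log2 scale (SE 0.13, limma adjusted p = 0.0114). Kcnj4, a second Kir2 subunit, was also lower in each knockout library, at 0.562, 0.406 and 0.440 FPKM against 0.306, 0.323 and 0.228 FPKM. It did not pass in the fit without a filter (limma adjusted p = 0.24). Kcnj2, the Kir2 subunit linked to differentiation of human myoblasts, had 0.210, 0.312 and 0.287 FPKM in the Ctrl libraries and 0.301, 0.529 and 0.466 FPKM in the Med23KO libraries, and the groups overlapped. The 3 genes summed to 5.74 ± 0.248 FPKM in Ctrl and 2.40 ± 0.223 FPKM in Med23KO cells (SD, n = 3), so Kcnj12 carried most of this transcript in both groups.

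Tandem-pore-domain genes encode background channels that leak potassium at rest, and their members differed among themselves. Kcnk5, a channel opened by alkaline pH and cell swelling, had 6.07, 8.04 and 6.67 FPKM in Ctrl replicates 1, 2 and 3 and 3.94, 3.53 and 4.01 FPKM in Med23KO replicates 1, 2 and 3. The groups did not overlap, and the knockout libraries were close to each other. The mean fell from 6.93 ± 1.01 to 3.83 ± 0.258 FPKM (SD, n = 3; log2 difference -0.71, SE 0.131, limma adjusted p = 0.0378). Its call was lost in 5 of the 6 fits that left out 1 library, all but the one without Med23KO replicate 3, and when low genes were not filtered out (adjusted p = 0.0853).

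Kcnk13, a background channel best known from microglia, was higher in the knockout without passing the threshold. It had 1.00, 1.47 and 0.843 FPKM in the Ctrl libraries and 2.62, 1.96 and 2.19 FPKM in the Med23KO libraries, and the lowest knockout library was above the highest control library. The log2 difference was 0.63 (SE 0.167, limma adjusted p = 0.092). In the authors' deposited table Kcnk13 was called higher (q = 0.000695).

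Kcnk2, a channel opened by membrane stretch, had 1.56, 1.13 and 1.55 FPKM in the Ctrl libraries and 1.69, 1.59 and 1.62 FPKM in the Med23KO libraries. The groups were just apart, and the difference of 0.13 had a 95% interval from -0.20 to 0.46 (limma adjusted p = 0.677). The annotation places 2900042K21Rik inside Kcnk2 on the same strand, at a mean of 0.514 FPKM, so that the split of reads between the pair is uncertain. The class as a whole summed to 9.03, 11.2 and 10.0 FPKM in the Ctrl libraries and 8.93, 7.52 and 8.53 FPKM in the Med23KO libraries, a small step down that left the groups narrowly apart.

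Among the voltage-gated subunits, Kcnf1 showed the clearest difference. It encodes a subunit that forms no channel by itself and modifies others. Kcnf1 had 27.3, 33.5 and 20.8 FPKM in Ctrl replicates 1, 2 and 3 and 13.9, 15.5 and 9.44 FPKM in Med23KO replicates 1, 2 and 3. Each knockout library was below each control library, with replicate 3 the lowest in both groups. The mean was 27.2 ± 6.38 FPKM in Ctrl and 12.9 ± 3.14 FPKM in Med23KO cells (SD, n = 3), 47.6% of the control level, and the log2 difference of -1.02 (SE 0.221) missed the threshold (limma adjusted p = 0.0583). It was past the threshold after median scaling (adjusted p = 0.0303), quantile normalization (0.0379), scaling to equal sums without Rmrp (0.0374), with library weights (0.0107) and without Med23KO replicate 3 (0.0359), and in the authors' deposited table (q = 0.000695). Across all the alternatives its adjusted p ran up to 0.216.

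Kcnq5, a subunit of slowly activating voltage-gated channels, had 1.39, 2.11 and 2.25 FPKM in the Ctrl libraries and 0.958, 0.699 and 1.73 FPKM in the Med23KO libraries, with Med23KO replicate 3 inside the control range (log2 difference -0.47, limma adjusted p = 0.294). The model Gm38243, at a mean of 1.82 FPKM, lies in Kcnq5 on its strand, so that reads of the pair may have been divided either way. The authors' deposited table called Kcnq5 lower (q = 0.0044).

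Genes of the ether-a-go-go family were low and variable. Kcnh2, the cardiac repolarization channel hERG, had 1.43, 0.591 and 0.428 FPKM in the Ctrl libraries and 1.99, 2.17 and 0.832 FPKM in the Med23KO libraries. Ctrl replicate 1 lay above Med23KO replicate 3, and the difference of 0.55 had a 95% interval from -0.11 to 1.21 (limma adjusted p = 0.343; called higher in the authors' deposited table, q = 0.00132). Kcnh5, of the same family, had 2.67, 1.01 and 1.23 FPKM in the Ctrl libraries and 3.36, 2.51 and 1.03 FPKM in the Med23KO libraries (log2 difference 0.31, limma adjusted p = 0.677). The groups overlapped, with Med23KO replicate 3 next to the lowest library.

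The single auxiliary subunit above the limit was Kcnab2, a cytosolic beta subunit of voltage-gated channels. It had 1.40, 1.08 and 0.807 FPKM in the Ctrl libraries and 1.77, 1.30 and 0.813 FPKM in the Med23KO libraries, largely overlapping (log2 difference 0.12, 95% interval -0.36 to 0.59, limma adjusted p = 0.809). It turned to -0.027 without Med23KO replicate 1. Nphp4, at a mean of 1.61 FPKM, overlaps it on the other strand, and use of strand in the counting is not stated. Kcnmb4, a beta subunit of the large-conductance channel, had 1.21, 1.03 and 0.658 FPKM in the Ctrl libraries and 0.486, 0.555 and 1.39 FPKM in the Med23KO libraries, with Med23KO replicate 3 above every control. Kcne1l, a KCNE-type auxiliary subunit that the name rule left out and that was singled out after its values were seen, had 0.266, 0.103 and 0.0400 FPKM in the Ctrl libraries and 0.884, 1.28 and 0.405 FPKM in the Med23KO libraries, higher in each knockout library.

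Of the 53 genes with a mean above 0 and under 1 FPKM, 3 had every knockout value above every control value (Kcnma1, Kcnj10 and Kcng1) and 1 was lower (Kcnj4). Over all genes in this range the shares were 7.91% and 3.10%. In the fit without a filter, 0 of the 53 passed the threshold (limma, lowest adjusted p = 0.13), and 4 had an unadjusted p under 0.05. Kcng2, a silent voltage-gated subunit, had 0.168, 0.0264 and 0.0186 FPKM in the Ctrl libraries and 0.549, 0.470 and 0.142 FPKM in the Med23KO libraries, where Med23KO replicate 3 fell within the control range. Kcnh1, known from human myoblast fusion, had 0.176, 0.0711 and 0.0672 FPKM in the Ctrl libraries and 0.155, 0.0738 and 0.111 FPKM in the Med23KO libraries, overlapping throughout. Kcng2 and Kcnh1 were singled out after their values were seen, as were the low Kcnn, Kcnma1 and Kcnj genes above.

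By level, Kcnf1, Kcnn4, Kcnk5, Kcnj12 and Kcnq5 followed each other in controls without overlap between neighbours. From Kcnq5 downward each of the genes described overlapped the next. In knockouts Kcnf1 and Kcnk5 stood apart in that order, and the other 8 genes described, Kcnj12 and Kcnn4 among them, each overlapped the next between 3.36 and 0.699 FPKM.

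The 3 genes that passed the test lie on different chromosomes and overlap no other annotated gene (GENCODE vM21, mm10). Kcnn4 is at chr7:24370263-24386690 on the plus strand, Kcnj12 at chr11:61022564-61071131 on the plus strand, and Kcnk5 at chr14:20140057-20181809 on the minus strand. As all 3 fell, the 250 bases before their RefSeq start sites (GRCm38.p6) are shown, each read 5′ to 3′ on the strand of the gene, at chr7:24370013-24370262, chr11:61065554-61065803 and chr14:20181783-20182032. The RefSeq start of Kcnj12 lies well inside the GENCODE span of the gene, so the 2 annotations differ in where it begins, and the window shown may not be its main promoter. Capitals mark E-boxes, the motif CANNTG that myogenic factors and other basic helix-loop-helix proteins can bind.
Kcnn4: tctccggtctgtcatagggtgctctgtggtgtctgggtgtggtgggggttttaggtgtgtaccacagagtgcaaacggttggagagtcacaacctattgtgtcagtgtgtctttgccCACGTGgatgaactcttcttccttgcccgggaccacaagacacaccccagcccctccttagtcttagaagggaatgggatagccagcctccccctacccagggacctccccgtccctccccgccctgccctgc
Kcnj12: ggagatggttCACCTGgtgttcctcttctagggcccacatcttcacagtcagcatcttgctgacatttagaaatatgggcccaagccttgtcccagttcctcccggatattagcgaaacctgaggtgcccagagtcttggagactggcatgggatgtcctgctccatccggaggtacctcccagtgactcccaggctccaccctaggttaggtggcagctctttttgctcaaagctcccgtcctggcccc
Kcnk5: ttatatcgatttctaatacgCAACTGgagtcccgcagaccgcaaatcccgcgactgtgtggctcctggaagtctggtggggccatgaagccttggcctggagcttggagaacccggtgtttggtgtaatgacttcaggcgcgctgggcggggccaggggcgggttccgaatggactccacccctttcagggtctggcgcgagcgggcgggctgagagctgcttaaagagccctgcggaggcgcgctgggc

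In the 300-base window that adds 50 bases after the start, Kcnn4 had 1 E-box, 133 bases before the start, and Kcnj12 and Kcnk5 had 2 each, the first 240 and 230 bases before it. A match to CANNTG, which reads the same on both strands, was present in 72.3% of the 32851 promoters of that length. The AP-1 motif TGACTCA, and GCGTGGGCG and GCGGGGGCG for EGR factors, were searched on both strands and matched 5.20%, 0.612% and 2.91% of promoters. None of these 3 motifs was found in the 3 windows, which says only that these letters are not there. GC content of the windows was 59.7%, 57.0% and 63.7%.

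Genes that act with potassium channels were taken from a list of 53, of which 33 were tested. Of these 1 rose and 0 fell, where 1.49% and 1.42% of all tested genes did so, so the counts are near the background. The groups did not overlap in 6 genes that were higher and 4 that were lower in the knockout (18.2% and 12.1%, against 10.0% and 14.7% of all tested genes). The 6 include Dpp6, which reached the level limit through its knockout values alone (control mean 0.946 FPKM). The list had a median log2 difference of 0.07 against -0.03 over all tested genes. The riser was Tmem38a, which encodes a potassium-permeable channel of the sarcoplasmic reticulum. It had 4.33, 3.90 and 3.01 FPKM in Ctrl replicates 1, 2 and 3 and 9.22, 10.4 and 6.42 FPKM in Med23KO replicates 1, 2 and 3, with the groups apart (log2 difference 1.01, SE 0.191, limma adjusted p = 0.0385). It passed in 1 of the 6 fits without 1 library, the one without Med23KO replicate 3. The summed level of the myocyte markers was also higher in each knockout library, as given above. Tnnt2 and Ckm overlapped between groups, and the mean of Tnnt2 was lower in knockouts. The part of the myocyte markers in the rise of Tmem38a was not tested.

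All 8 listed regulators of Kcnn4 were tested, and 0 passed. The knockout values lay below the control values in 3 of the 8 (37.5%), where 14.7% of all tested genes did so, and above them in 0. Whether the 8 changed together was not tested. Calm2 and Calm3, which encode the calcium sensor of the channel, had 197 and 198 FPKM and 73.1 and 75.2 FPKM on average in controls and knockouts, with overlapping groups. Pik3c2b, a lipid kinase that supports activation of the channel, had 6.54, 4.16 and 3.81 FPKM in the Ctrl libraries and 2.52, 2.73 and 1.86 FPKM in the Med23KO libraries. It was lower in each knockout library (log2 difference -0.77, limma adjusted p = 0.0898). Nme2, the histidine kinase that activates the channel, had 368, 334 and 321 FPKM against 280.3, 293 and 263 FPKM, again apart (limma adjusted p = 0.144). Trim27, which marks Pik3c2b for inhibition, had 20.4 ± 1.38 and 16.2 ± 1.75 FPKM (SD, n = 3), apart as well (limma adjusted p = 0.188). The opposing phosphatases Phpt1 and Mtmr6 had 30.9 and 34.1 FPKM and 20.0 and 20.0 FPKM on average, and overlapped.

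The partners of other channels were low or did not pass. Abcc8, a receptor subunit of channels closed by ATP, had at most 0.175 FPKM in any library. Abcc9, the second such receptor, had 0.301, 0.244 and 0.0622 FPKM in the Ctrl libraries and 0.551, 0.699 and 0.613 FPKM in the Med23KO libraries, higher in each knockout library, while its pore partner Kcnj8 did not exceed 0.128 FPKM. Of the sodium pump genes, which build the potassium gradient, 4 of 7 were tested and 0 passed. Neither did any of 8 tested calcium entry genes, 4 calcium release genes or 4 cation-chloride cotransporter genes. Dpp6, an auxiliary subunit of fast transient channels, had 0.946 ± 0.112 FPKM in Ctrl and 2.37 ± 0.739 FPKM in Med23KO cells (SD, n = 3) without overlap (limma adjusted p = 0.0715). With a control mean under 1 FPKM, it was tested through its knockout values alone. Tmem38b, the relative of Tmem38a, had 6.96 ± 1.09 and 10.9 ± 0.518 FPKM, also apart (limma adjusted p = 0.0581). Ryr1, the calcium release channel of skeletal muscle, had 8.62, 5.05 and 4.13 FPKM against 17.8, 15.7 and 7.74 FPKM, overlapping (limma adjusted p = 0.137). In the other direction, Itpr1, of the same calcium release list, was lower in each knockout library. It had 14.0, 12.4 and 14.3 FPKM in the Ctrl libraries and 8.92, 9.21 and 11.2 FPKM in the Med23KO libraries (limma adjusted p = 0.104). Dpp6, Tmem38b, Ryr1 and Itpr1 were singled out after their values were seen.

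Of the other tested genes, those whose values ran most like Kcnn4 over the 6 libraries were Ncs1, G0s2, Eif1ad, Atic and Tnc, with Pearson correlations of log2 values from 0.997 to 0.999. These are descriptions over 6 libraries that share the division into groups. They were picked for this likeness, so a shared pattern over replicates is fixed by the choice.

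**Figure D5:**
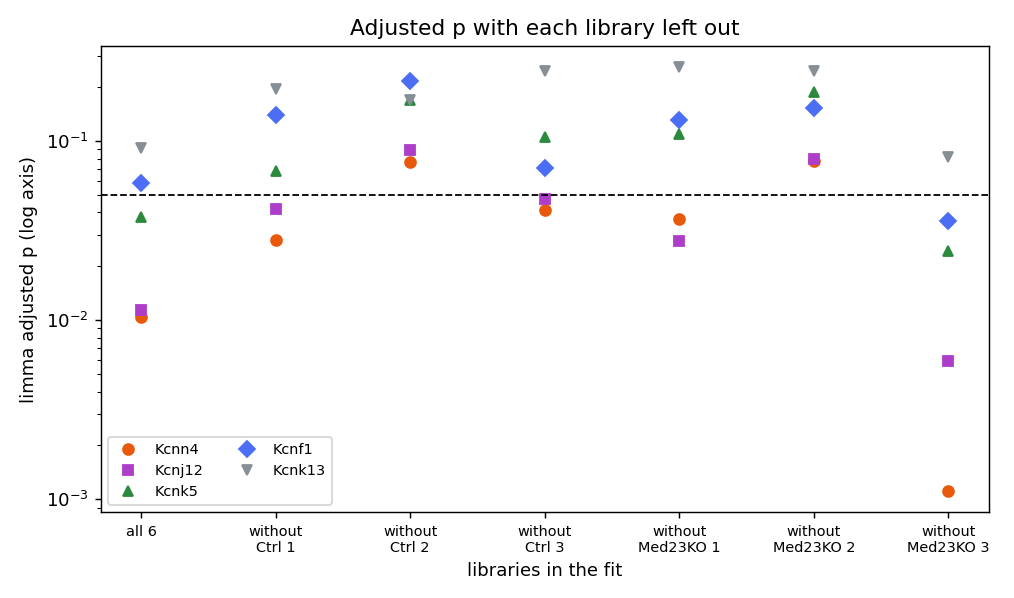
Limma adjusted p (log axis) of 5 potassium channel genes with all 6 libraries and with each library left out, against the threshold of 0.05 (dashed line). Without Ctrl replicate 2 or Med23KO replicate 2 all 5 lie above the line, and without Med23KO replicate 3 all but Kcnk13 lie below it.

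With single libraries left out, Kcnn4 kept a log2 difference between -2.72 and -2.30 and an adjusted p between 0.00111 and 0.0779. Kcnj12 kept a difference between -1.25 and -1.11, with adjusted p-values up to 0.0892, and was called in 4 of the 6 fits, as Kcnn4 was. Kcnk5 stayed between -0.79 and -0.61 and Kcnf1 between -1.19 and -0.82, each called in 1 of the 6 fits.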

How the data were processed

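RNA-seq of 6 libraries (3 Ctrl, 3 Med23KO) was used. Poly(A) RNA went into strand-specific libraries, per the labels' protocols. The authors processed reads with FastQC, cutadapt, STAR and Cuffdiff on mm10, per the submitters' processing notes; the sources used here do not give versions, annotation or strand setting. The deposited table holds FPKM per library, the group FPKM of the authors' comparison, and p-values and q-values that the authors obtained with Cuffdiff, per the file headers. A count model was not applied to FPKM, and depth is unknown: at most 23.4% of low genes shared 1 ratio between any pair of libraries (tolerance 0.03, log2). Genes at a mean of 1 FPKM or more (12336) were tested on log2(FPKM + 1) with limma 3.58.1 (R 4.3.3, mean-variance trend, genotype as the factor, two-sided, Benjamini-Hochberg over all tested genes, threshold 0.05). An exact test of 3 against 3 libraries cannot go below p = 0.1 and was not used. The code was tested on simulated data.

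The channel genes, partner and marker lists were chosen with earlier results of these data known. By rule, tested channel genes, the genes next to the limit, Kcnn4 regulators, Abcc8, Abcc9, partner genes past the threshold and the 5 genes most like Kcnn4 were named; 2 tested channel genes and 1 regulator are not reported here. Alternatives covered pseudocount, filter, scaling, variance model, weights, a replicate block, single libraries left out and the authors' q-values. Loci came from GENCODE vM21 and promoter sequences from RefSeq (GRCm38.p6), where 10 of the 12 tested genes had an entry. Protein sequences were not used here.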

Additional observations from a re-analysis of the deposited data

How the results depend on the processing

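Direction held in all alternatives for 9 of the 10 genes described. The exception was Kcnab2 (log2 difference from -0.027 to 0.28 with 1 library left out, below 0 without Med23KO replicate 1), which was not past the threshold in any setting. The number of genes called lower was 3 in the main analysis and between 2 and 4 in the other settings with all libraries. It was between 0 and 4 with 1 library left out (0 without Ctrl replicate 2 or Med23KO replicate 2). The authors' deposited q-values called 5 of the 12 tested genes lower and 2 higher. Over all 12336 tested genes these q-values called 897 lower and 1029 higher, many more than the 175 and 184 of the main analysis. Kcnn3, under the level limit, was also called higher there. Genes tested numbered 12, except 4 at a mean of 5 FPKM or more, which left Kcnj12 out, 17 at 0.5 FPKM or more and 65 without a filter. The number called higher was 0 in the main analysis and with 1 library left out. Kcnn4 ranged from -2.72 to -2.30 with 1 library left out, and its adjusted p exceeded 0.05 without Ctrl replicate 2 (-2.33, adjusted p = 0.0766) and without Med23KO replicate 2 (-2.33, adjusted p = 0.0779). Its range over all settings that kept 6 libraries was -3.17 to -2.37, past the threshold each time.

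The replicate numbers are not shown to pair libraries: deviations from the group means correlated at 0.44, -0.02 and 0.56 for replicates 1, 2 and 3. With a replicate block 1 gene was called higher (Kcnk13) and 4 lower, among them Kcnf1 (adjusted p = 0.00104), and calls over all genes went from 184 higher and 175 lower to 1180 and 1577. Calls over all genes were 73 and 84 without a filter, 363 and 205 after median scaling, and 298 and 201 after quantile normalization. They were 489 and 157 with equal sums without Rmrp, and 850 and 850 with library weights. By the authors' q-values they were 1029 and 897, counted over the 12336 tested genes alone. With 1 library left out, calls ran from 3 to 749 higher and from 10 to 395 lower. Partner genes called higher numbered 1 in the main analysis and 0 to 6 over the alternatives, and those called lower 0 and 0 to 4. The depth behind the libraries is unknown, and for genes under 1 FPKM the log2(FPKM + 1) scale compresses differences.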
